A study of Mus musculus with 4 samples.

Results

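Chromatin accessibility across the genome was compared between LT-HSCs that did and did not show open chromatin at Clca3a1. The cells carried barcode suffix -1 in a table of single-cell ATAC-seq counts per peak and cell. They were chosen by 2 measured values. A cell needed at least 4899 counts in all peaks, the 10th percentile of counts per cell over the whole table. It was called Clca3a1-open when at least 1 count lay in a peak overlapping the Clca3a1 gene body or the 5000 bp upstream of it. By this rule 131 of 749 suffix 1 cells were open and 618 had no count there, out of 1454 cells in the table. The openness of Clca3a1 itself is therefore no result, whereas all other loci were not used to choose the cells.

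The study profiled LT-HSCs (long-term hematopoietic stem cells, here bone marrow LSK cells negative for CD34 and CD135) of C57BL/6JRj mice in 4 samples with 1 sample per group, each pooled from 4 mice with 2500 cells per mouse. Per the labels, the table used holds the CLCA3A1high and the CLCA3A1low sample, LT-HSCs from animals of 22 to 28 months that had been sorted with an antibody to Clca3a1. The other 2 samples, LT-HSCs from young (3 to 4 months) and old (22 to 28 months) animals, were not used here. No label pairs a barcode suffix with a sample, so neither suffix is given a sort gate below, and no barcode was found with both suffixes (0 shared). All cells came from 1 pooled table. Cells are not replicates of a condition, so no test across cells was made and no p-value is given.

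Clca3a1 encodes a membrane protein of the calcium-activated chloride channel regulator family, whose genes lie side by side on mouse chromosome 3. The study used it as a surface marker to sort aged stem cells, in connection with Taz, the Hippo pathway co-activator encoded by Wwtr1, which acts through TEAD factors. Single-cell ATAC-seq counts cut sites of the Tn5 transposase, which reaches DNA where nucleosomes are absent. A diploid nucleus offers only a few copies of each site, so a cell without a count at a locus may still be open there.

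The locus held 3 peaks (ENSMUSG00000056025.12, GRCm38 chr3:144729677-144760977, minus strand). The start peak (chr3:144760541-144761718) covered the promoter and exon 1, the intron 6 peak lay within intron 6, and the exon 13 peak (chr3:144736877-144737223) overlapped coding exon 13 of the 14 exons of transcript Clca3a1-202. The sequences of the start and exon 13 peaks are shown because these peaks took part in deciding which cells were called open. They are given 5′ to 3′ on the strand of the gene from RefSeq GRCm38.p6, as the 250 bases before the start (chr3:144760978-144761227) and the central 300 bases of the exon 13 peak (chr3:144736900-144737199). Capitals would mark a match to 1 of 6 consensus words searched on both strands, namely GAGGAAGT for PU.1, CATTCC for TEAD, TGACTCA for AP-1, TGTGGTT for RUNX, AGATAAG for GATA and the CTCF consensus.
Clca3a1 start: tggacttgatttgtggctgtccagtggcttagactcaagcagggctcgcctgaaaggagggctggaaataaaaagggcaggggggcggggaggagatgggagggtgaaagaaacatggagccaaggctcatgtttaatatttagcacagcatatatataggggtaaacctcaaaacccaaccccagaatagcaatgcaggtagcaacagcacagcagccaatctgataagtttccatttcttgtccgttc
Clca3a1 exon 13 peak: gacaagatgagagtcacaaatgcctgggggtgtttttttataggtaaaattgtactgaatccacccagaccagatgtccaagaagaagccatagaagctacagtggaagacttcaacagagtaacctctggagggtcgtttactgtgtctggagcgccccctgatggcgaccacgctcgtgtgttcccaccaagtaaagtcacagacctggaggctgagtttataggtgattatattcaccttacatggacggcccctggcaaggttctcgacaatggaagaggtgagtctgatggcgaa
None of the 6 words was found in these 2 windows. The CTCF word was present in 4.70% of the central 300 bp windows of all 93513 peaks and in 0.508% of 250 bp promoters. The TEAD word was present in 14.1% of peak windows and 12.6% of promoters, and the PU.1 word in 6.68% and 2.44%. The same shares were 8.53% and 4.46% for the AP-1 word, 11% and 4.40% for the RUNX word, and 4.47% and 2.74% for the GATA word.

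Most open cells had 2 counts, and most had them in the start peak. Of the 131 open cells, 9 had exactly 1 count at the locus, 96 had 2, 4 had 3, 19 had 4, and 3 cells had 6, 7 and 8 counts. A count of 2 usually stands for the 2 ends of 1 fragment, since 88.7% of all non-zero values in the table were even. The cells just inside the limit thus differed from those just outside it by 1 or 2 counts against 0. On the depth limit, the shallowest cell kept had 4899 counts and the deepest cell left out had 4819. The start peak held a count in 107 of 749 cells (14.3%, exact Clopper-Pearson 95% interval 11.9% to 17.0%). The intron 6 peak held one in 17 cells (2.27%, 1.33% to 3.61%) and the exon 13 peak in 12 cells (1.60%, 0.831% to 2.78%). Cells rarely had counts in more than 1 of the peaks, with 102 cells at the start peak alone, 15 at intron 6 alone, 9 at exon 13 alone, 2 at start and intron 6, and 3 at start and exon 13. In suffix 2, 44 of 560 cells past the same depth limit were open (7.86%, 5.77% to 10.4%), against 17.5% (14.8% to 20.4%) in suffix 1. In suffix 2 the start peak held a count in 24 cells (4.29%), intron 6 in 11 (1.96%) and exon 13 in 9 (1.61%). These values describe the counts that the rule used in 2 single sets of cells, and no difference between the sets was tested.

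Open cells were the more deeply sequenced ones. The median count per cell was 19989 in open cells and 13360 in cells without a Clca3a1 count. Across deciles of depth, the share of open cells in suffix 1 was 12.0%, 4.00%, 9.33%, 13.3%, 8%, 20.0%, 16%, 18.7%, 26.7% and 47.3% from the shallowest to the deepest decile. The deepest decile alone, 74 cells with 31979 to 81621 counts, held 35 of the 131 open cells (35.6% to 59.3% of its cells). After each cell was thinned to 4899 counts, 64 of 749 cells (8.54%, 6.64% to 10.8%) still had a Clca3a1 count. All comparisons below were therefore matched on depth. For each locus, the level expected was that of the cells without a Clca3a1 count in the same decile, weighted by the counts of the open cells in that decile, and the Clca3a1 peaks were left out. Levels are given as CPM, counts scaled to a total of 1000000 counts in peaks. Within deciles, open cells had 0.981 to 1.05 times the mean depth of the others.

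**Figure D1:**
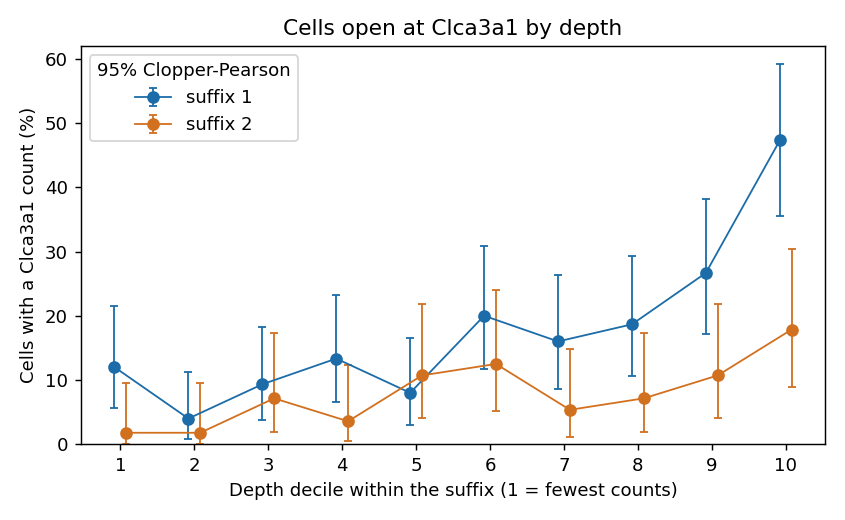
Share of cells with at least 1 Clca3a1 count (y axis, %) by decile of counts per cell (x axis, 1 is the shallowest) in suffix 1 and suffix 2. Bars are 95% Clopper-Pearson intervals, and suffix 1 goes from 12.0% in the first decile to 47.3% in the last.

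Few loci differed by the set size of 1.5-fold between open cells and their depth-matched counterparts. Of 9491 protein-coding loci with at least 500 counts in suffix 1, 27 were at least 1.5-fold higher (0.284%) and 33 at least 1.5-fold lower (0.348%) in open cells. The median log2 ratio over all loci was 0.01 with a standard deviation of 0.20 across loci, and 51.9% of loci were above 0. The ratios narrowed with the number of counts behind them. Between 500 and 1000 counts, 58 of 5388 loci passed 1.5-fold (standard deviation 0.22). Between 1000 and 2000 counts 2 of 3312 passed (0.16), and of the 725 loci with 2000 to 4000 counts and the 66 with more, 0 passed (0.14 and 0.11). The loci nearest to the limit were Gm9821 at a log2 ratio of 0.59 just past it and Gm3625 at 0.58 just short of it on the higher side, and S100a5 at -0.59 and Thumpd3 at -0.58 on the lower side.

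**Figure D2:**
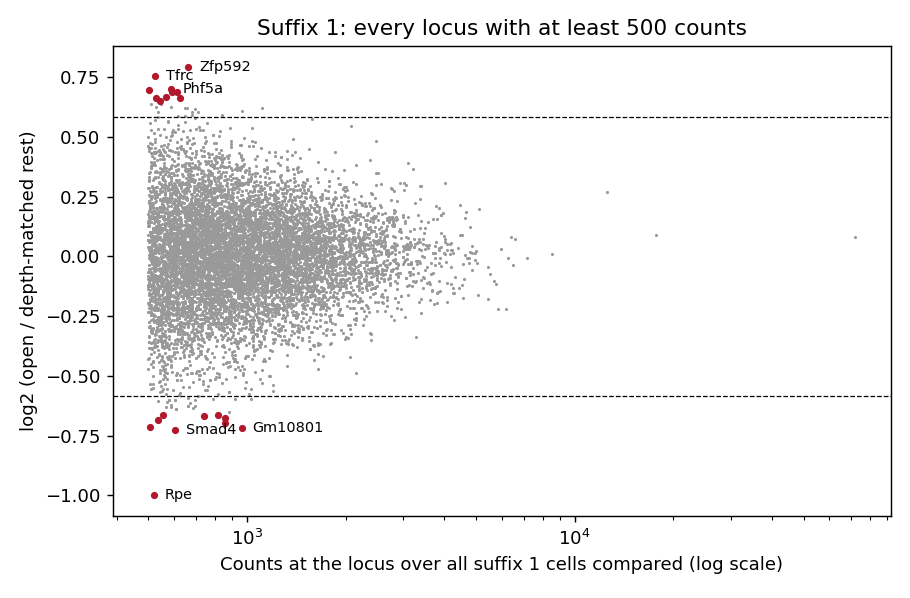
The log2 ratio of open cells to depth-matched cells without a Clca3a1 count (y axis) against the counts at the locus (x axis, log scale) for 9491 loci of suffix 1. Dashed lines mark 1.5-fold and red points the 10 highest and 10 lowest loci, all of which have under 1000 counts.

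The 10 highest loci away from Clca3a1 (over 1000000 bp from the gene and sharing no peak) ranged from a log2 ratio of 0.65 to 0.79 and the 10 lowest from -1.0 to -0.66. They are the extremes of 9491 loci and were named for that, so their size is a description. Zfp592, a zinc finger gene on chromosome 7, had 73.0 CPM in open cells and 41.5 CPM expected (log2 0.79, 95% counting interval 0.48 to 1.15), with a count in 51.1% of open cells against 37.8% expected. Tfrc, the transferrin receptor that brings iron into erythroid and dividing cells, had 60.3 CPM against 35.0 CPM (log2 0.76, 0.40 to 1.15) and was higher in 8 of 10 deciles. Phf5a, a spliceosome component, had 69.8 CPM against 42.4 CPM (log2 0.70, 0.37 to 1.07). The others on this side were Tmem39b, Wdr63, Fam221b, Spice1 (a centriole protein), Slc38a11 (an amino acid transporter family member), Rad52 (DNA repair) and Rnf6 (a ubiquitin ligase). Of the 10 highest, 7 had the same sign in the 5 shallower and the 5 deeper deciles, and Zfp592 was at -0.03 in the shallower and 0.88 in the deeper ones. The deciles are parts of the cells that chose these loci, so shared signs and counts of deciles are a description and no replication.

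On the lower side, Rpe, an enzyme of the pentose phosphate pathway, had 22.5 CPM in open cells against 46.6 CPM expected (log2 -1.0, -1.60 to -0.53), with a count in 23.7% of open cells against 39.9% expected. It was higher in open cells in 1 of 10 deciles. Smad4, the shared effector of TGF-beta and BMP signalling, had 35.5 CPM against 59.8 CPM (log2 -0.73, -1.20 to -0.33). Gm10801, a predicted gene in a stretch of chromosome 2 known to collect excess reads in sequencing assays, had 57.1 CPM against 95.1 CPM (log2 -0.72, -1.08 to -0.40). Sema4f, Lypd6b, Rab35 (an endosomal GTPase), Map1b (microtubule binding), Etl4, Rgs10 (a G protein regulator) and Msrb2 (methionine sulfoxide reduction) followed. Signs were equal in shallower and deeper deciles for 9 of these 10, Sema4f being the exception (0.06 and -0.83). Here too the deciles are parts of the cells that chose the loci, so these values are no replication.

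The same split in suffix 2 gave other loci. Here 99 of 7297 loci were at least 1.5-fold higher (1.36%) and 211 at least 1.5-fold lower (2.89%) in the 44 open cells, with a standard deviation across loci of 0.28. Counting error was larger there, with a median width of the counting interval of 0.94 log2 units against 0.63 in suffix 1. How far it accounts for the shares past 1.5-fold or for the likeness of the suffixes was not tested. Matching was also less close, since open cells of the deepest decile in suffix 2 had 1.25 times the mean depth of the others. Over the 7247 loci tested in both suffixes, the log2 ratios had a Pearson r of 0.01 and a Spearman rho of 0.01 across loci, and 0.04 for both over the 2371 loci with at least 1000 counts in each. Over the 342 loci with at least 2000 counts in each, both were -0.07. Loci are not independent replicates, and neighbouring loci share peaks. Of the 8 loci past 1.5-fold higher in suffix 1 and tested in both, 6 were above 0 in suffix 2 (75%, exact interval 34.9% to 96.8%), against 46.2% of all loci. Of the 13 loci past 1.5-fold lower, 6 were below 0 in suffix 2 (46.2%, 19.2% to 74.9%), against 53.8% of all loci. None of these 21 loci passed 1.5-fold in the same direction in suffix 2 (0 of 8 and 0 of 13).

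**Figure D3:**
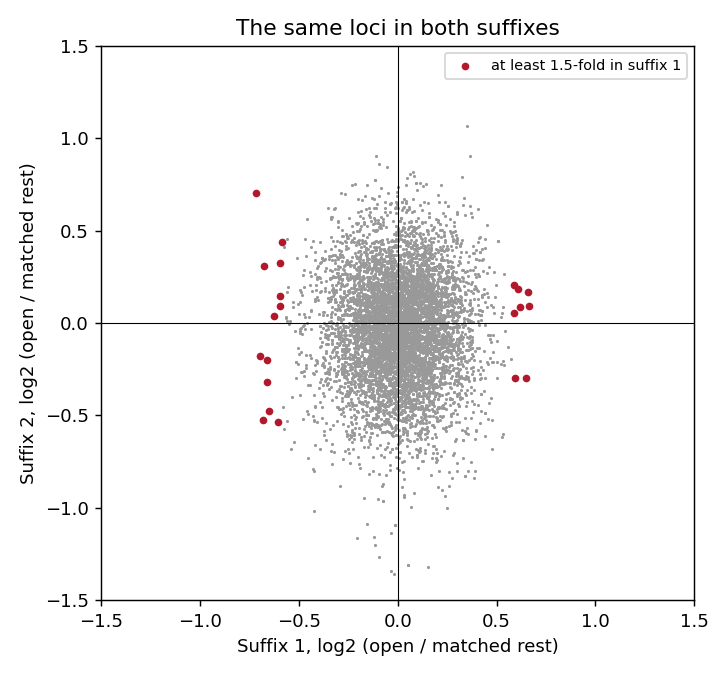
The log2 ratio of open cells to depth-matched cells in suffix 1 (x axis) and suffix 2 (y axis) for the 7247 loci tested in both, with the 21 loci past 1.5-fold in suffix 1 in red. The cloud has no slope (Pearson r 0.01), and red points lie on both sides of 0 on the y axis.

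Among the 20 named loci, the 10 highest of suffix 1 were above 0 in suffix 2 for 5 and below 0 for 5, with a median of -0.00 and a range of -0.54 (Tmem39b) to 0.30 (Zfp592). Tfrc was at -0.01 and Phf5a at 0.09 in suffix 2. Of the 10 lowest, 7 were below 0 and 3 above 0. Sema4f (-0.78, -1.91 to -0.05), Rab35 (-0.53, -1.31 to 0.07) and Smad4 (-0.50, -1.32 to 0.13) were the lowest of these in suffix 2, whereas Gm10801 was on the opposite side at 0.71 (0.42 to 1.01). Rpe, the lowest locus of suffix 1, was at 0.11 in suffix 2.

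The summed accessibility of Hippo pathway genes did not differ beyond counting error between open cells and their depth-matched counterparts. Of 24 members, 16 were tested, of which 0 passed 1.5-fold higher and 0 lower, beside 0.284% and 0.348% of all loci, shares at which few or no calls among so few loci carry no information. Their median log2 ratio was -0.03 against 0.01 over all loci, and 7 were above 0. Summed over the peaks of all members, open cells had 1805 CPM against 1790 CPM expected (log2 0.01, -0.05 to 0.07). Wwtr1, which encodes TAZ, had 114 CPM against 137 CPM (log2 -0.26, -0.51 to -0.03) in suffix 1 and was at 0.21 (-0.20 to 0.61) in suffix 2, with overlapping intervals. It held a count in 64.9% of open cells against 70.7% expected. Yap1, the paralog of TAZ, was sparsely covered, with 20.6 CPM against 16.5 CPM (log2 0.29, -0.33 to 0.94). The TEAD genes, the DNA-binding partners of TAZ, had log2 ratios of -0.09 (Tead1), 0.12 (Tead2), 0.15 (Tead3) and -0.01 (Tead4). The kinases that restrain TAZ were at -0.22 (Lats1, -0.72 to 0.24, below the minimum) and -0.27 (Lats2, -0.67 to 0.09). Vgll4, which competes with TAZ for TEAD binding, had the largest count of the list with 301 CPM against 258 CPM (log2 0.22, 0.07 to 0.38), and -0.17 in suffix 2. Of the target genes, Ccn1 was at 0.19 (-0.18 to 0.55), Ccn2 at -0.19 (-0.87 to 0.41), Axl at 0.27 (-0.17 to 0.72) and Amotl2 at -0.13 (-0.35 to 0.09). Ccn2 and Axl lay below the minimum. Ccn1 lies on chromosome 3 and is also on the list of Clca3a1 neighbours described below. Ankrd1 had no peak in this table.

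Loci of LT-HSC identity summed to 2998 CPM in open cells against 2895 CPM expected (log2 0.05, 0.00 to 0.10). Of 27 members 19 were tested, 14 of them above 0 and 0 past 1.5-fold on either side, with a median log2 of 0.08. Fgd5, a stem cell reporter gene, had 55.2 CPM against 42.5 CPM (log2 0.37, 0.01 to 0.74), and Prdm16, a transcription factor of stem cell maintenance, 396 CPM against 348 CPM (log2 0.18, 0.05 to 0.32). The transcription factor loci Gata2 (log2 0.20, 0.00 to 0.39), Hlf (0.16, -0.08 to 0.39) and Mecom (0.02, -0.11 to 0.16) lay beside or above 0. Meis1, a homeobox partner of HOX proteins, had 281 CPM against 322 CPM (log2 -0.20, -0.36 to -0.05), and Hoxa9 was at -0.20 (-0.50 to 0.08). In suffix 2 the list summed to 2967 CPM against 2586 CPM (log2 0.20, 0.12 to 0.27), with 1 of 18 tested members, Fgd5, past 1.5-fold higher, beside 1.36% of all loci tested there. The members did not move alike in the suffixes. Fgd5 was at 0.90 and Hlf at 0.34 in suffix 2, on the same side of 0 as in suffix 1, whereas Meis1 was at 0.44 and Prdm16 at -0.13, on the other side. In suffix 1 the list was higher in open cells in 4 of 10 deciles, with log2 -0.09 in the 5 shallower and 0.07 in the 5 deeper deciles.

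Multipotent progenitor loci summed to 1395 CPM against 1450 CPM (log2 -0.06, -0.13 to 0.01), and to log2 -0.08 (-0.18 to 0.02) in suffix 2. Of 10 tested members 0 passed 1.5-fold and 6 were above 0. Flt3, the receptor encoding CD135 that was gated out in the sort, was at 0.04 (-0.27 to 0.34). Below the minimum of 500 counts, Cd34 was at -0.06 (-0.69 to 0.53) and Cd48 at -0.40 (-1.26 to 0.30). Notch1 had 118 CPM against 146 CPM (log2 -0.30, -0.55 to -0.07) but was at 0.22 in suffix 2. Cd27, a lymphoid co-stimulatory receptor also below the minimum of 500 counts, was at -0.61 (-1.19 to -0.13) and at -0.95 in suffix 2.

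For loci known to be raised in aged HSCs the sum was 1731 CPM against 1714 CPM (log2 0.01, -0.05 to 0.08), with 0 of 19 tested members past 1.5-fold higher (0.284% of all loci) and 1 lower (0.348%). The lower one was Jam2, a junction adhesion molecule, with 43.8 CPM against 67.0 CPM (log2 -0.60, -1.01 to -0.23), and 0.15 in suffix 2. Selp (0.07), Clu (-0.04), Vwf (-0.17) and Aldh1a1 (-0.15), which are among the best known genes of aged HSCs, had intervals that spanned 0. Nupr1, a stress-response regulator, had 40.3 CPM against 21.3 CPM (log2 0.88, 0.46 to 1.38). It lay below the minimum with 127 and 228 counts, and had a count in 28.2% of open cells against 21.8% expected. In suffix 2 Nupr1 was at 1.35. Others below the minimum differed in side. Dsg2, a desmosomal cadherin (-0.65, -1.44 to -0.03, and 0.17 in suffix 2), and Sbspon (-0.53, -1.36 to 0.11) were lower. Plscr2 was near 0 (0.02, -0.41 to 0.44). Tm4sf1, a membrane protein gene on chromosome 3, was at 0.44 (0.04 to 0.86), and at 0.53 in suffix 2.

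The megakaryocyte and platelet loci summed to 1841 CPM against 1835 CPM (log2 0.01, -0.06 to 0.07), with 0 of 13 tested past 1.5-fold. Gp1bb, a subunit of the platelet von Willebrand factor receptor, was highest with 72.7 CPM against 50.7 CPM (log2 0.51, 0.19 to 0.84), and 0.44 in suffix 2. Itga2b, which encodes CD41, was at 0.03 and Pf4 at 0.31. In suffix 2 the list as a whole stood at log2 0.20 (0.10 to 0.29). Erythroid loci summed to log2 0.07 (-0.10 to 0.23), and of the 3 tested members Tfrc was past 1.5-fold higher (0.284% of all loci were), having already been named as an extreme of all loci. Klf1, the erythroid master regulator, was at -0.12 (-0.54 to 0.27), and 5 of the 12 members, the globin gene Hba-a1 among them, had no peak.

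PU.1 and myeloid loci likewise did not differ in sum beyond counting error. Spi1, the gene of PU.1, had 104 CPM in open cells and 104 CPM expected (log2 0.00, -0.26 to 0.26), and a count in 59.5% of open cells against 62.2% expected. The list of 17 members summed to log2 -0.04 (-0.16 to 0.07), with 0 of 6 tested members past 1.5-fold. Cebpb, an inducible myeloid transcription factor, had 75.2 CPM against 52.7 CPM (log2 0.50, 0.19 to 0.83) and was at -0.30 in suffix 2. Csf1r, the receptor of macrophage colony-stimulating factor, had 35.5 CPM against 50.4 CPM (log2 -0.49, -0.95 to -0.09) and was at 0.15 in suffix 2. No member of this list had an interval clear of 0 on the same side in both suffixes.

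Immediate early and AP-1 loci, which open on cell stress and isolation, had the most summed counts of all lists, with all 18 members tested. They summed to 3196 CPM against 3077 CPM (log2 0.05, 0.01 to 0.10), and 13 of 18 lay above 0 with 0 past 1.5-fold. Egr1 (0.20, 0.05 to 0.35) and Nr4a1 (0.24, 0.01 to 0.48) were the highest with intervals clear of 0, and Junb (-0.12) and Jund (-0.11) the lowest of the AP-1 subunits. The sum was at -0.04 without depth matching and at -0.01 without the 28 deepest cells and thus changed direction with the treatment of depth. Cell cycle loci summed to log2 -0.04 (-0.10 to 0.02), with 12 of 19 below 0. Mcm5, a subunit of the replicative helicase, was lowest with 48.6 CPM against 72.3 CPM (log2 -0.56, -0.96 to -0.21), and -0.53 in suffix 2. Mki67 was at -0.05 (-0.47 to 0.35) and Cdk6 at -0.11 (-0.36 to 0.14). Antigen presentation loci summed to log2 -0.00 (-0.09 to 0.09), with B2m at 0.35 (0.05 to 0.65) and Cd74 at -0.46 (-0.81 to -0.14). The 12 reference genes summed to log2 0.03 (-0.03 to 0.10), yet 1 of them, Pgk1, passed 1.5-fold lower (log2 -0.60, -1.04 to -0.22). Over all 18 lists, 155 of 264 genes were tested, of which 1 was past 1.5-fold higher and 2 lower, beside 0.284% and 0.348% of all loci, so nothing is read from these counts.

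**Figure D4:**
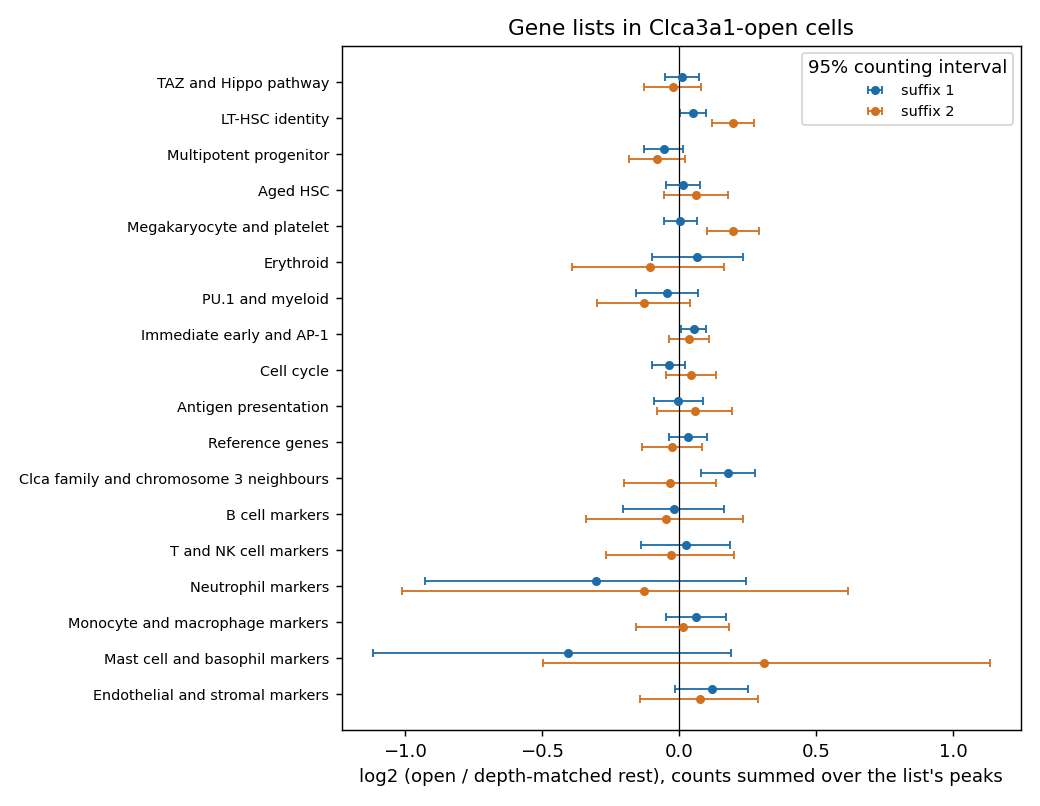
The log2 ratio of open cells to depth-matched cells for the counts summed over each of 18 gene lists (x axis) in suffix 1 and suffix 2, with 95% counting intervals. In suffix 1 every sum except those of the sparse neutrophil and mast cell lists lies between -0.06 and 0.18, the highest being that of the Clca family and its neighbours.

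For markers of other blood and marrow cells, the interval of each list's summed ratio spanned 0 in suffix 1. The B cell list summed to 207 CPM in open cells and 210 CPM expected, the T and NK cell list to 266 CPM and 261 CPM, and the endothelial and stromal list to 396 CPM and 364 CPM (log2 0.12, -0.01 to 0.25). The monocyte and macrophage list stood at 594 CPM and 569 CPM, nearly all of it at Cx3cr1 and Cd68. The neutrophil list (20.6 CPM and 25.8 CPM, log2 -0.30) and the mast cell and basophil list (16.2 CPM and 21.9 CPM, log2 -0.40) were close to empty. Defining loci such as Cd3e, Ms4a1, Camp, C1qa and Mcpt8 had no peak in the table, and Cd79a had peaks but 0 counts in the 749 cells. In a wider set of such cells, this allows a share of up to 0.401% with a count there. It sets no limit on the cells that are open. S100a8, a neutrophil granule gene, had 2 counts in open cells and 35 in the others (0.634 CPM against 4.68 CPM). The part that such cells took in the ratios above was not tested.

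Around Clca3a1 itself, on chromosome 3, open cells of suffix 1 had more counts than expected. Peaks 25 to 100 kb from the gene had 63.5 CPM in open cells against 42.9 CPM (log2 0.55, 0.21 to 0.91), from 200 and 450 counts in 9 peaks. The 3 peaks within 25 kb had 75.2 CPM against 68.9 CPM (log2 0.12, -0.19 to 0.43). Further out, log2 ratios were 0.12 (-0.01 to 0.26) at 100 to 500 kb, 0.23 (0.09 to 0.38) at 500 to 1000 kb, 0.12 (0.07 to 0.18) at 1000 to 5000 kb and 0.03 (0.02 to 0.05) on the rest of the chromosome. All other chromosomes together were at -0.00. With at least 3 counts needed to call a cell open, which left 26 open cells, the ratio at 25 to 100 kb was -0.02. In suffix 2 the log2 ratios were -0.37 (-0.99 to 0.15) within 25 kb, -0.15 (-0.89 to 0.49) at 25 to 100 kb, 0.13 (-0.09 to 0.34) at 100 to 500 kb, -0.06 (-0.33 to 0.20) at 500 to 1000 kb -0.02 (-0.11 to 0.07) at 1000 to 5000 kb and 0.07 (0.05 to 0.09) beyond. The intervals of the suffixes did not overlap in the last 2 classes, where suffix 1 was the higher at 1000 to 5000 kb and suffix 2 the higher beyond. These classes are sums over many counts, for which the counting intervals are too narrow, as described below. The difference between suffixes was not tested, and nothing is read from the gap between intervals. Depth changed the values of suffix 1. In the 5 shallower deciles, with 35 open cells, the log2 ratios were -0.92 within 25 kb, 0.09 at 25 to 100 kb, -0.29 at 100 to 500 kb, -0.44 at 500 to 1000 kb and 0.18 at 1000 to 5000 kb. In the 5 deeper deciles, with 96 open cells, they were 0.23, 0.60, 0.17, 0.30 and 0.12 in the same order.

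**Figure D5:**
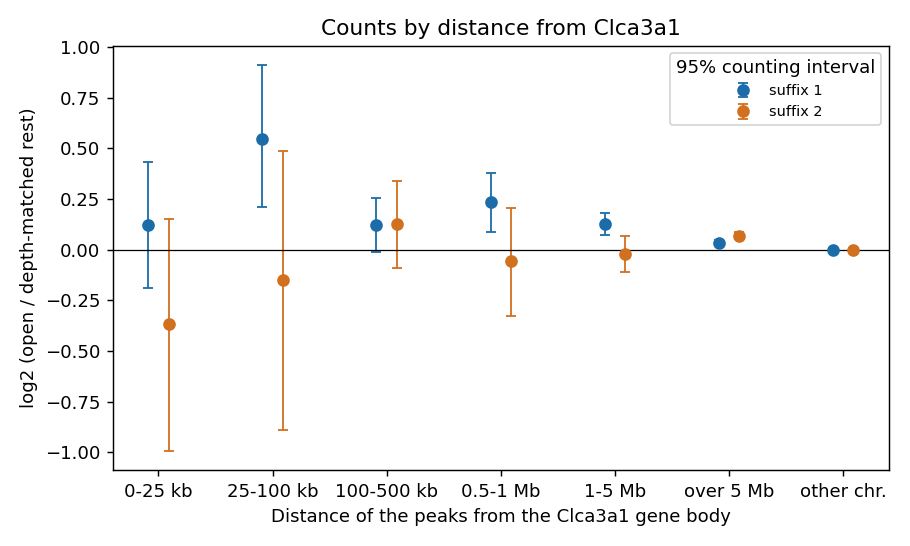
The log2 ratio of open cells to depth-matched cells (y axis) for peaks grouped by distance from the Clca3a1 gene body (x axis), in suffix 1 and suffix 2 with 95% counting intervals. Suffix 1 is highest at 25 to 100 kb (0.55), where suffix 2 is at -0.15.

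The counting intervals are too narrow for sums over many counts, as whole chromosomes show. In suffix 1 the log2 ratio of single chromosomes (autosomes and X) ran from -0.05 to 0.04, with chromosome 3 the highest of 20 at 0.04 (0.03 to 0.05) and chromosome 13 the lowest at -0.05 (-0.07 to -0.04). In suffix 2 it ran from -0.11 on chromosome 1 to 0.11 on chromosome 14, with chromosome 3 in rank 4 at 0.06. Ratios of this size on a large sum are thus found on chromosomes that do not hold Clca3a1.

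The genes beside Clca3a1 were described one by one. All 9 tested members of the list of Clca genes and neighbours lay above 0 in suffix 1, against 51.9% of all loci, with a median log2 of 0.19 and 0 past 1.5-fold. They are adjacent and were chosen for their position. Their sum was 718 CPM against 634 CPM (log2 0.18, 0.08 to 0.28), with -0.21 in the 5 shallower deciles, 0.22 in the 5 deeper ones and -0.03 (-0.20 to 0.13) in suffix 2. Sh3glb1, an endophilin-family gene next to Clca3a1, had 118 CPM against 98.6 CPM (log2 0.26, 0.01 to 0.51). Selenof, a selenoprotein of the endoplasmic reticulum, had 93.9 CPM against 73.4 CPM (log2 0.35, 0.07 to 0.63). Hs2st1, a heparan sulfate sulfotransferase, was at 0.28 (0.05 to 0.52) and Lmo4, a LIM-only cofactor, at 0.26 (0.00 to 0.52). In suffix 2 these genes were at -0.32 (Sh3glb1), 0.02 (Selenof), 0.13 (Hs2st1) and -0.81 (Lmo4). Among single peaks within 100 kb, the clearest was a peak within the gene body of Sh3glb1 at chr3:144703535-144704456, chosen after its values were seen, with a count in 25 open cells (19.1%, against 10.7% expected) and a log2 ratio of 0.69 (0.04 to 1.48). Of the Sh3glb1 peaks near a protein-coding start, the one at chr3:144718514-144721820 was even, with 60.0 CPM against 59.0 CPM (log2 0.02, -0.33 to 0.36). The other, at chr3:144697077-144698523, had 13.3 CPM against 8.65 CPM (log2 0.54, -0.19 to 1.39).

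Other Clca genes were barely accessible. Clca3a2, Clca3b and Clca1 each had 1 peak away from the start, with 27, 70 and 25 counts over the 749 cells, and Clca4b, Clca4a and Clca2 had none. Clca3b had a count in 6.87% of open cells against 5.33% expected, and Clca3a2 in 3.82% against 2.93%. Clca1, an intestinal mucus family member, had counts in 14 cells, of which 8 were open (6.11%, against 0.887% expected). This rests on 13 and 12 counts (log2 1.28, 0.58 to 4.30), and the ratio was 0.03 in suffix 2.

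Global features of the accessible genome were compared next. Peaks within 1000 bp of a protein-coding start took 54.1% of counts in open cells against 53.7% expected in suffix 1, and 53.3% against 54.1% in suffix 2, in opposite directions. At 4899 counts per cell the median number of peaks with a count was 3838 in open cells (quartiles 3524 and 4012) and 3566 in the others (3221 and 3829). Open cells were deeper before thinning, and the cause of this gap was not tested. When thinned cells were also matched on deposited depth, the medians were 3735 and 3747, and unthinned within deciles 8709 and 8739.

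Peaks that held a transcription factor word took nearly equal shares of counts. The PU.1 word was in 10360 peaks, with 17.1% of the counts of open cells and 17.0% expected (log2 0.01, -0.00 to 0.01). It turned negative with the word in the central 300 bp of the peak (-0.0156), outside promoters (-0.00851), without depth matching (-0.00663), with each peak counted once per cell (-0.00528) and with at least 3 counts for an open cell (-0.00126). In suffix 2 the same share was 18.1% against 18.4% (log2 -0.02, -0.03 to -0.01). Peaks with the TEAD word took 53.6% against 53.4% (log2 0.01, 0.00 to 0.01), and 53.2% against 52.9% in suffix 2. The AP-1 word stood at 26.3% and 26.3%, the RUNX word at 31.3% and 31.2% and the GATA word at 17.9% and 17.8%. The CTCF word had the largest ratio, 6.10% against 6.01% (log2 0.02, 0.01 to 0.03), and 5.91% against 5.69% (log2 0.05, 0.04 to 0.07) in suffix 2. All these ratios lay within the range of the single chromosomes in the same suffix.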

How the data were processed

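Single-cell ATAC-seq (10x Genomics chemistry v1.1) was processed by the authors with Cell Ranger ATAC 1.2.0 on mm10, per the labels, and 2 tables, with peaks in rows and barcodes in columns, were deposited. The deposited counts are whole numbers with no normalization stated. Only 1 table, with named peaks (93513 peaks, 1454 cells), was used here, since peaks of the other carry no names. Each suffix 1 cell that was compared had 4899 to 81621 counts. Which sample a suffix belongs to is not given in the sources used here.

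A locus was the GENCODE M21 gene body of a protein-coding gene plus 5000 bp upstream (21951 loci), read as the sum of its overlapping peaks, so neighbouring loci can share peaks. Open cells were compared with cells without a Clca3a1 count in the same of 10 depth deciles. Log2 ratios carry a pseudocount of 5 counts. Intervals of log2 ratios use the Clopper-Pearson formula at 95% on counts divided by 2, because a fragment usually brings 2 cut sites. They are approximate, since the depth weights were taken as fixed. They carry no pseudocount, so they need not centre on the printed ratio where counts are few. Undivided counts had been planned. The intervals cover counting error only. No cells were removed as doublets and no doublet caller was run. Loci with at least 500 counts were read against a fold of 1.5. The genes named are those of 18 lists and the 10 highest and 10 lowest loci over 1000000 bp from Clca3a1 that share no peak. Members, lists and settings were chosen with earlier results of these data known. Older symbols were matched through RefSeq synonyms. Python 3.11.15, numpy 2.4.6, scipy 1.17.1 and pandas 2.3.3 were used, and the ratio was tested on simulated data. Alternatives were 20 depth bins, no matching, each peak counted once per cell, other minima of counts, other definitions of open cells, start windows and the mean over cells. The sequence of 1 of the Clca3a1 peaks is not reported here.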

Additional observations from a re-analysis of the deposited data

How the results depend on the processing

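No paired analysis was possible because each group is a single sample and no value comes from a test. Of 269 alternative values of the main results, 224 stayed within the interval of the main value, or for counts of loci within 1.5 times, and 45 moved outside it. This was the counting interval for ratios and the exact interval for shares of cells or loci. For peaks per cell the quartiles across cells were used, which are no counting interval. Of 180 alternative values of the 20 named loci 163 stayed within the counting interval, and 0 of the 20 changed side. These loci were chosen as extremes of the main setting, and every alternative read cells of the same set. Keeping their side is therefore no independent evidence for them. The share of open cells was 8.54% after thinning, 14.3% with the start peak alone and 3.47% with at least 3 counts, all lower by construction. With at least 200 counts per locus 102 loci passed 1.5-fold higher and 184 lower, whereas a minimum of 1000 left 1 and 1. When every peak was counted once in a cell, 2031 loci were tested and 0 and 0 passed. With the start peak alone 53 passed lower, and with loci cut to their starts 20 passed lower.

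Without depth matching the log2 ratio was -0.0357 for immediate early and AP-1 loci, 0.0129 for the promoter share, -0.00663 for the PU.1 word, 0.0629 at 1000 to 5000 kb, -0.0171 beyond 5000 kb and 0.000589 on other chromosomes. Counting each peak once gave -0.0404 for reference genes, 0.00158 for the promoter share and -0.00528 for the PU.1 word. Without the 28 deep cells (over 3 times the median) it was -0.00918 for immediate early and AP-1 loci, 0.00404 for the promoter share and 0.0169 beyond 5000 kb, and with the start peak alone 0.0550 beyond 5000 kb. Start windows gave 0.10 for the Hippo list, -0.13 for monocyte and 0.26 for mast cell markers. The PU.1 word stood at -0.0156 in the central 300 bp and -0.00851 outside promoters, where the TEAD word stood at -0.00287. Unthinned and matched in deciles, peaks per cell were 8709 and 8739.

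A limit of 3 counts, chosen after seeing the data, left 26 open cells. Then 197 loci passed higher and 321 lower. The ratios were 0.10 for the Hippo list, 0.0943 for aged HSC, 0.10 for immediate early, 0.17 for reference and 0.21 for monocyte loci, 0.0342 for the promoter share, -0.00126 for PU.1 and 0.0129 for TEAD words, and -0.0209 at 25 to 100 kb, 0.21 at 1000 to 5000 kb and 0.0677 beyond. The cause of these shifts was not tested. Depth limits all comparisons, since loci with 500 to 1000 counts had a median interval width of 0.72 log2 units.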
